A study of Rattus norvegicus with 9 samples.

Results

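The 6 genes that encode the platelet-derived growth factor (PDGF) ligands and their receptors, Pdgfa, Pdgfb, Pdgfc, Pdgfd, Pdgfra and Pdgfrb, were followed across 9 fetal lungs of Sprague-Dawley rats. They were picked by symbol as the whole family, 6 of the 17465 genes in the count table, and all 6 passed the filter on low counts that left 12966 genes for testing. RNA of whole, frozen lungs was sequenced after ribosomal RNA depletion. There were 3 groups of 3 libraries: untreated control lungs, untreated hypoplastic lungs (lungs that stayed underdeveloped because amniotic fluid was lacking, which is called oligohydramnios), and hypoplastic lungs given AFSC-EVs (vesicles that amniotic fluid stem cells release). The group given vesicles is called treated. The labels name no transgene or gene deletion, and say nothing on fetal age, litter, vesicle dose, route or timing. Replicates were taken as separate lungs from their numbering, so the p-values measure the spread between these samples.

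PDGFs are secreted dimers. PDGF-A and PDGF-C act mainly through the alpha receptor, PDGF-B binds both receptors, and PDGF-D acts mainly through the beta receptor. The receptors are tyrosine kinases that pair on ligand binding and signal through RAS-MAPK, PI3K and PLC-gamma. In the developing lung, PDGF-A is made largely by epithelium and acts on alpha-receptor mesenchyme, from which the alveolar myofibroblasts arise, whereas PDGF-B from endothelium acts on pericytes and other mural cells that carry the beta receptor.

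Library totals ran from 56922779 to 88243188 estimated counts. Control library 2 and hypoplastic library 2 stood apart from the rest: they were the ends of the first principal component over all genes (33.4% of the variance), at -54.9 and 62.3, with the other 7 libraries between -12.9 and 20.6. Lung identity was checked by Nkx2-1, the lung epithelial transcription factor, at 264.5 to 441.8 CPM (counts scaled to a common library size of 1e+06, after TMM normalization), and Sftpc, a surfactant protein gene, at 291.8 to 950.8 CPM over the 9 libraries. Over all tested genes, edgeR's quasi-likelihood test with Benjamini-Hochberg adjustment called 1 gene (0.00771%) at an adjusted p under 0.05 in hypoplastic against control lungs. It was Spp1, the osteopontin gene, named here because it was the only call, with a log2 fold change of 5.01 (SE 0.419, adjusted p 0.00582). Leaving out control library 1 or 3 gave a count of 0. It was 2, 45 and 5 when hypoplastic library 1, hypoplastic library 3 or treated library 2 was left out. No gene (0%) was called in treated against hypoplastic or in treated against control lungs by edgeR. limma voom called 1, 0 and 0 genes in the 3 comparisons and DESeq2 called 207, 17 and 14. An unadjusted p under 0.05 was reached by 1603 genes (12.4%), 721 genes (5.56%) and 541 genes (4.17%).

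Of the PDGF family, 0 of 6 genes were called in any of the 3 comparisons, and none reached an unadjusted p under 0.05. The same held for DESeq2 and limma voom. The values below are therefore given as levels, with the interval of each difference. The counts are not scaled by gene length, so a higher CPM of 1 gene than of another says nothing on which had more transcripts. In whole lung, fewer cells of a type and less RNA per cell cannot be told apart.

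**Figure D1:**
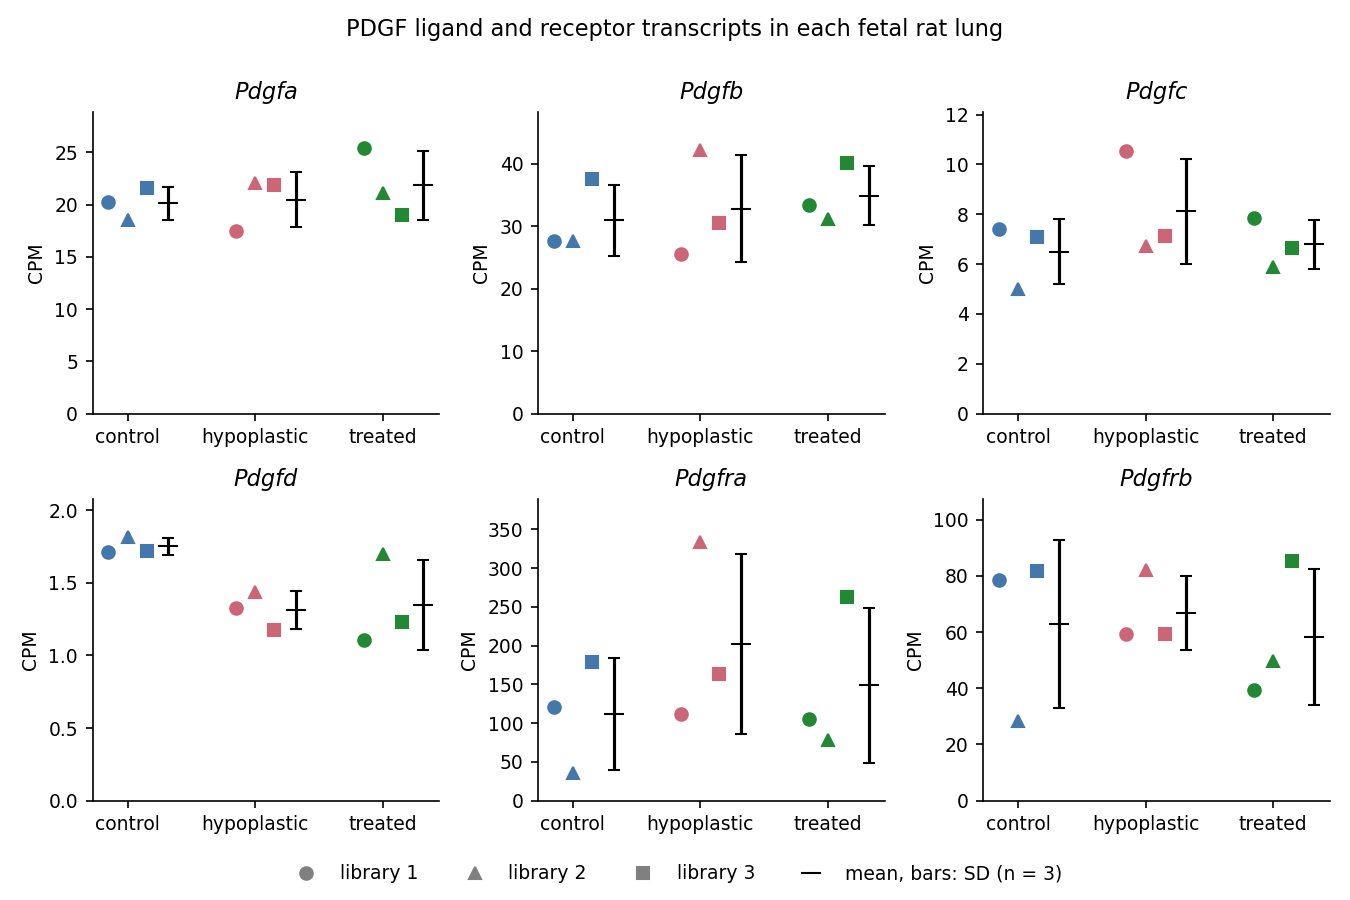
Level of each PDGF gene in each of the 9 lungs, in CPM on axes that start at 0. Coloured points are single libraries (marker shape gives the library number), and the black marks are the group mean with SD (n = 3). Pdgfd is the only gene in which all 3 control libraries, at 1.72 to 1.82 CPM, lie above all hypoplastic and all treated libraries. The groups overlap for the other 5 genes.

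Pdgfa (Gene ID 25266) encodes the ligand whose loss is known to abolish alveolar septation in mice. The control libraries held 20.2, 18.5 and 21.6 CPM, the hypoplastic libraries 17.4, 22.1 and 21.9 CPM, and the treated libraries 25.4, 21.1 and 19.0 CPM. The 3 groups overlapped and their means lay close together, at 20.1 CPM ± 1.55, 20.4 CPM ± 2.62 and 21.8 CPM ± 3.26 (SD, n = 3 each). Hypoplastic lungs differed from control lungs by 0.02 on the log2 scale (SE 0.148, approximate 95% interval -0.31 to 0.36, edgeR adjusted p 0.963), and treated from hypoplastic lungs by 0.09 (SE 0.148, interval -0.24 to 0.43, edgeR adjusted p 0.961). These were the narrowest intervals in the family. For treated against control lungs the difference was 0.12 (interval -0.21 to 0.45).

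Pdgfb (Gene ID 24628) encodes the ligand that recruits pericytes to vessels. It stood at 27.7, 27.7 and 37.5 CPM in the control, 25.6, 42.3 and 30.5 CPM in the hypoplastic and 33.5, 31.1 and 40.1 CPM in the treated libraries. The highest value was in hypoplastic library 2 and the lowest in hypoplastic library 1, so that group spanned the other groups. The means of 31.0 CPM ± 5.68, 32.8 CPM ± 8.58 and 34.9 CPM ± 4.69 (SD, n = 3 each) differed by less than the spread within a group. The log2 differences were 0.08 (SE 0.201, interval -0.37 to 0.53) for hypoplastic against control, 0.09 (SE 0.201, interval -0.36 to 0.54) for treated against hypoplastic and 0.17 (SE 0.201, interval -0.28 to 0.62) for treated against control lungs.

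Pdgfc (Gene ID 79429) encodes a ligand that is secreted in latent form, with a CUB domain that must be cut off before it binds a receptor. The libraries held 7.40, 5.01 and 7.09 CPM in control, 10.6, 6.71 and 7.11 CPM in hypoplastic and 7.86, 5.87 and 6.64 CPM in treated lungs. Hypoplastic library 1 was highest and control library 2 lowest, and the groups overlapped. The log2 difference of hypoplastic from control lungs was 0.32 (SE 0.230, interval -0.20 to 0.84, edgeR adjusted p 0.592), and that of treated from hypoplastic lungs -0.26 (SE 0.229, interval -0.77 to 0.25, edgeR adjusted p 0.940). Treated lungs differed from control lungs by 0.06 (interval -0.46 to 0.57). With 1 library left out, the difference of hypoplastic from control lungs ran from 0.085 to 0.44.

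Pdgfd (Gene ID 66018) encodes the other CUB-domain ligand and had the fewest counts of the family, 65 to 142 per library. At the lowest of these, counting error alone is 12.4% of the value. It stood at 1.72, 1.82 and 1.72 CPM in the control, 1.33, 1.44 and 1.18 CPM in the hypoplastic and 1.11, 1.70 and 1.23 CPM in the treated libraries. All 3 control libraries lay above all 6 others, by a narrow margin over treated library 2. The log2 difference was -0.41 (SE 0.238, interval -0.94 to 0.12, edgeR adjusted p 0.502) for hypoplastic and -0.37 (SE 0.232, interval -0.89 to 0.15, edgeR adjusted p 0.998) for treated against control lungs, and both differences share the control libraries. Treated and hypoplastic lungs overlapped, with a difference of 0.04 (SE 0.239, interval -0.50 to 0.57). Without treated library 2, the difference of treated from control lungs was -0.58 with an unadjusted p of 0.0430 in edgeR's fit.

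Pdgfd was thus the only member whose libraries did not overlap between groups, lower in hypoplastic and in treated than in control lungs. Over all tested genes, the libraries of hypoplastic and control lungs did not overlap for 16.7% of genes (7.68% higher and 9.05% lower in hypoplastic lungs). The same was so for 9.39% of genes in treated against control lungs (4.37% higher, 5.02% lower) and 9.81% in treated against hypoplastic lungs (5.07% higher, 4.74% lower). In the last of these comparisons no member was without overlap. Against these shares, 1 of 6 members in each of 2 comparisons is close to the background.

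Pdgfra (Gene ID 25267), the alpha receptor gene, had the widest range of the family. The control libraries held 120.8, 35.6 and 178.5 CPM, the hypoplastic libraries 111.2, 333.1 and 163.7 CPM, and the treated libraries 105.1, 78.3 and 263.0 CPM. Control library 2 was lowest and hypoplastic library 2 highest, 9.35-fold apart, and the other 7 libraries of the 3 groups lay among each other. The group means were 111.6 CPM ± 71.8, 202.6 CPM ± 116.0 and 148.8 CPM ± 99.8 (SD, n = 3 each). Hypoplastic lungs stood 1.81-fold above control lungs, with an interval of 0.685- to 4.80-fold (log2 0.86, SE 0.627, edgeR adjusted p 0.598). Treated lungs differed by -0.45 (SE 0.623, interval -1.84 to 0.95, edgeR adjusted p 0.960) from hypoplastic and by 0.41 (SE 0.624, interval -0.98 to 1.81, edgeR adjusted p 0.998) from control lungs on the log2 scale.

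The size of these Pdgfra differences depended on single libraries. The log2 difference of hypoplastic from control lungs was 0.44 without control library 2, 0.30 without hypoplastic library 2 and 1.37 without control library 3 (edgeR adjusted p 0.409). With both control library 2 and hypoplastic library 2 left out, an alternative chosen after the values were seen, it was -0.12. Treated against hypoplastic lungs gave -1.14 without treated library 3 and 0.12 without hypoplastic library 2, so the sign turned.

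Pdgfrb (Gene ID 24629), the beta receptor gene, is a defining gene of pericytes. It stood at 78.4, 28.4 and 81.8 CPM in the control, 59.1, 82.2 and 59.2 CPM in the hypoplastic and 39.4, 49.8 and 85.3 CPM in the treated libraries. Control library 2 was again lowest, treated library 3 was highest, and the groups overlapped. The means were 62.9 CPM ± 29.9, 66.8 CPM ± 13.3 and 58.2 CPM ± 24.1 (SD, n = 3 each). The log2 differences were 0.09 (SE 0.390, interval -0.79 to 0.96, edgeR adjusted p 0.943) for hypoplastic against control, -0.20 (SE 0.390, interval -1.07 to 0.67, edgeR adjusted p 0.965) for treated against hypoplastic and -0.11 (SE 0.390, interval -0.99 to 0.76) for treated against control lungs.

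**Figure D2:**
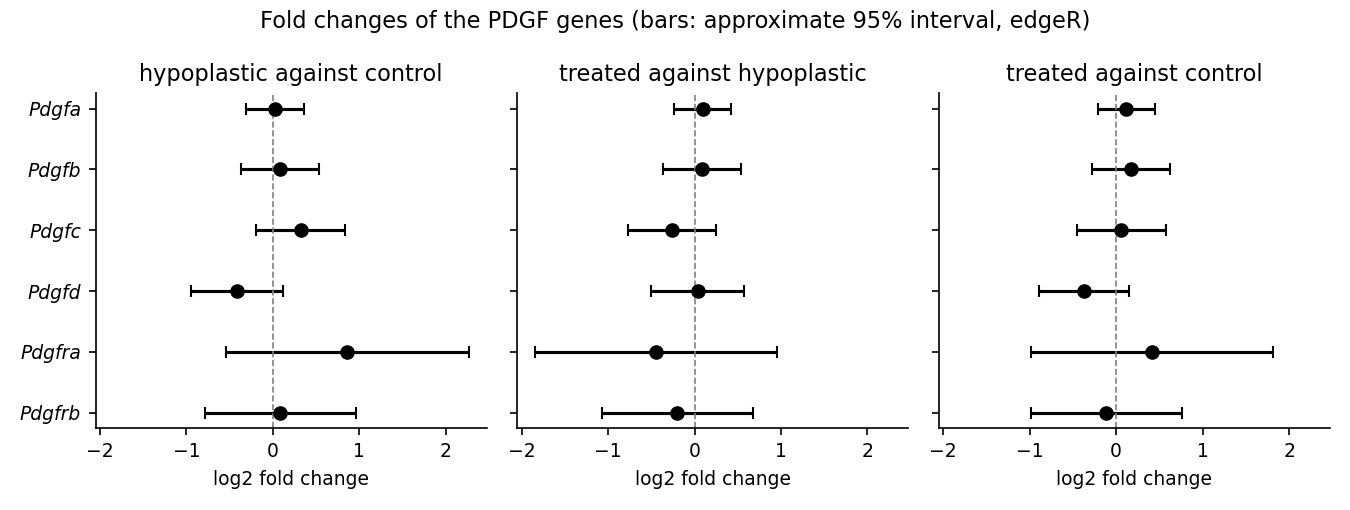
Log2 fold change of each PDGF gene in the 3 comparisons, with approximate 95% intervals from edgeR's fit as bars and a dashed line at no change. Every interval crosses 0. The intervals of Pdgfa are the narrowest (-0.31 to 0.36 in hypoplastic against control lungs) and those of Pdgfra the widest (-0.55 to 2.26).

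The promoters of 5 of the 6 genes were in the RefSeq table used (assembly GRCr8), each as the 250 bases before and 50 after the gene's start. They are compared here for Pdgfa, the ligand with the least spread, and Pdgfra, the receptor with the most. Capitals mark the letters of a GC box (GGGCGG, or CCGCCC on the other strand) and of a CCAAT box (CCAAT or ATTGG). The Pdgfa stretch is chr12:20759116-20759415 on the plus strand and the Pdgfra stretch chr14:33408467-33408766 on the minus strand, and both are written 5′ to 3′ along the gene.
Pdgfa: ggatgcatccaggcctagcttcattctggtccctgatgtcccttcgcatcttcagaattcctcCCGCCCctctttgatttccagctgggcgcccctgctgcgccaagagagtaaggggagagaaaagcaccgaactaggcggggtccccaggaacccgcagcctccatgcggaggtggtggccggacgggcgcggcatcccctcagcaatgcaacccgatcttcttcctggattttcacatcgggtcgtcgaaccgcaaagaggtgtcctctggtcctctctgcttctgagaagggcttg
Pdgfra: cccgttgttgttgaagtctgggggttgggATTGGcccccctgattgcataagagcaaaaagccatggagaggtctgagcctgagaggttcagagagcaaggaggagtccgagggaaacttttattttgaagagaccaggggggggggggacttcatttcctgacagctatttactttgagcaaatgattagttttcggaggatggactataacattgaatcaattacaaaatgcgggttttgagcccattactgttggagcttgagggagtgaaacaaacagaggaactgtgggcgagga

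The Pdgfa stretch held 1 GC box and no CCAAT box, and the Pdgfra stretch 1 CCAAT box and no GC box. On both strands, a GC box was in 33.1% and a CCAAT box in 37.5% of 33469 promoters of this length. Pdgfb and Pdgfd also held 1 GC box each, and Pdgfc held neither. GC content was 60% in Pdgfa, 62% in Pdgfb, 58% in Pdgfc and 60% in Pdgfd, against 48% in Pdgfra, a value above 36.3% of the promoters. The letters TATAAA (14.2% of promoters), TGACTCA, an AP-1 site (4.63%), and GCGGGGGCG, an EGR site (2.73%), were searched on both strands and were in none of the 5 stretches. These are matches of letters in a fixed window, and the expression data do not bear on binding there.

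Pooled over the groups, the receptors varied more within a group than the ligands did. This did not hold for Pdgfrb in the hypoplastic group alone. There its SD of log2 CPM was 0.27, below 0.37 for Pdgfb and 0.35 for Pdgfc. The pooled SD of log2 CPM about the group means was 0.99 for Pdgfra and 0.62 for Pdgfrb, against 0.18 for Pdgfa, 0.20 for Pdgfd, 0.28 for Pdgfb and 0.30 for Pdgfc. Among 11392 tested genes with a mean of at least 1 CPM, the median was 0.20. The Pdgfra spread exceeded that of 98.0% of these genes and the Pdgfrb spread that of 93.6%, whereas Pdgfa exceeded 40.4%, Pdgfd 49.3%, Pdgfb 70.1% and Pdgfc 73.1%. Counting error is a small part of the receptor spread, since the lowest Pdgfra count was 1998 and the lowest Pdgfrb count 1592, for which it is 2.24% and 2.51%.

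**Figure D3:**
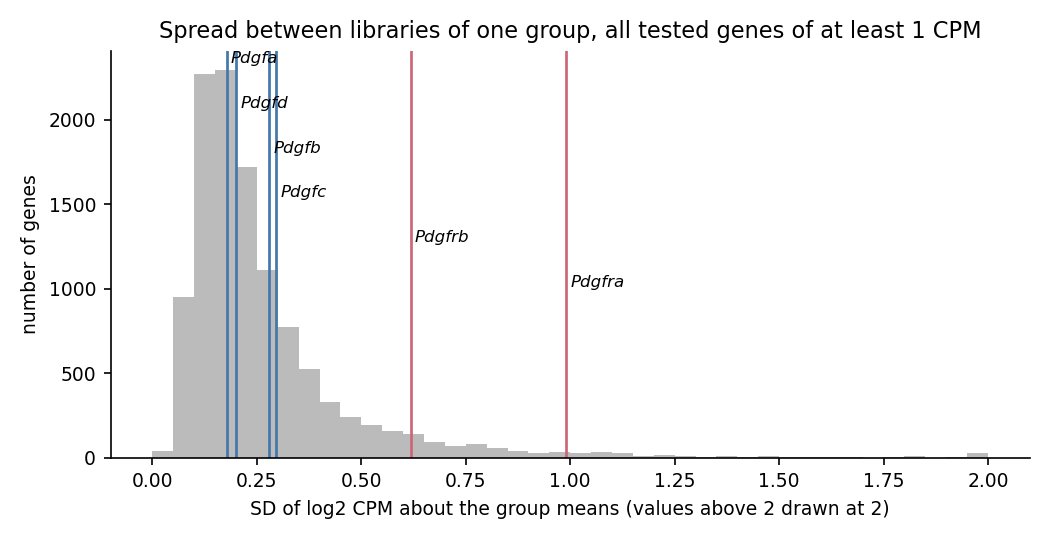
Histogram of the spread between libraries of 1 group (SD of log2 CPM about the group means, horizontal axis) for 11392 tested genes, with the number of genes on the vertical axis. Vertical lines mark the ligand genes (blue, 0.18 to 0.30) and the receptor genes (red). Pdgfrb at 0.62 and Pdgfra at 0.99 lie in the right tail.

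Pdgfra and Pdgfrb were high or low in the same lungs. Over the 9 libraries their log2 CPM gave Pearson's r = 0.875 (exact permutation p 0.00153, adjusted over 5 pairs 0.00763) and Spearman's rho = 0.95 (exact permutation p 0.000353, adjusted 0.00176). This pair was added after its values had been seen. Within groups, as deviations from the group means, r was 0.914. Without the 2 libraries farthest from the Pdgfra median, control library 2 and hypoplastic library 2, it was 0.72 over 7 libraries. Leaving out 1 library at a time gave r of 0.737 to 0.923. The adjusted exact permutation p of Pearson's r rose to 0.189 without control library 2, so the result of that test rests on that library. Spearman's rho was not tested with libraries left out.

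The 4 pairs of a ligand and its main receptor did not pass the same test. Pdgfb with Pdgfrb gave the highest coefficient, r = 0.517 (exact permutation p 0.154, adjusted 0.384) and rho = 0.567 (p 0.121 by the same permutation test), and r was 0.221 without the 2 libraries farthest from the Pdgfb median. Pdgfc with Pdgfra gave r = 0.33 and rho = 0.1 (exact permutation p 0.38 and 0.81), and Pdgfa with Pdgfra r = 0.245 and rho = 0.3 (exact permutation p 0.529 and 0.437). Without the 2 libraries farthest from the ligand's median, these r were 0.018 and 0.518. For Pdgfd with Pdgfrb, r was -0.0757 and rho -0.0833 (exact permutation p 0.844 and 0.843), and r was 0.0423 without the farthest 2. The adjusted exact permutation p of these 3 pairs ran from 0.634 to 0.844.

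Ratios within a library do not depend on a size factor. Pdgfra counts were 1.54, 1.25 and 2.18 times the Pdgfrb counts in the control, 1.88, 4.05 and 2.76 times in the hypoplastic and 2.66, 1.57 and 3.08 times in the treated libraries. The groups overlapped. The mean log2 ratio was 0.69 ± 0.404, 1.47 ± 0.555 and 1.23 ± 0.511 (SD, n = 3 each), a difference of 0.77 for hypoplastic against control lungs (2-sided exact permutation p 0.2), -0.24 for treated against hypoplastic lungs (p 0.6, exact) and 0.54 for treated against control lungs (p 0.2, exact). Such a test of 3 against 3 libraries cannot go below 0.1.

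The log2 ratio of Pdgfa to Pdgfra counts was -2.58, -0.94 and -3.05 in the control, -2.67, -3.92 and -2.90 in the hypoplastic and -2.05, -1.89 and -3.79 in the treated libraries. The groups again overlapped, and the differences of their means were -0.97, 0.59 and -0.39 for the 3 comparisons in the same order (exact permutation p 0.4, 0.5 and 0.7).

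The genes whose profile over the 9 libraries was most like that of each member were taken by Pearson's r of log2 CPM among 11346 genes, as a description with no test. For Pdgfra they were C1qc (r = 0.993) and C1qa (0.989), which encode chains of complement C1q and are known as macrophage genes in most tissues, and Cd300a (0.986), an inhibitory receptor of myeloid cells. C1qc stood at 30.0, 6.47 and 35.6 CPM in the control, 23.0, 75.8 and 38.6 CPM in the hypoplastic and 24.6, 16.6 and 68.3 CPM in the treated libraries. Its low library and its 2 high libraries were those of Pdgfra. C1qc was not called either, at a log2 difference of 0.93 for hypoplastic against control lungs (SE 0.687, edgeR adjusted p 0.603).

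**Figure D4:**
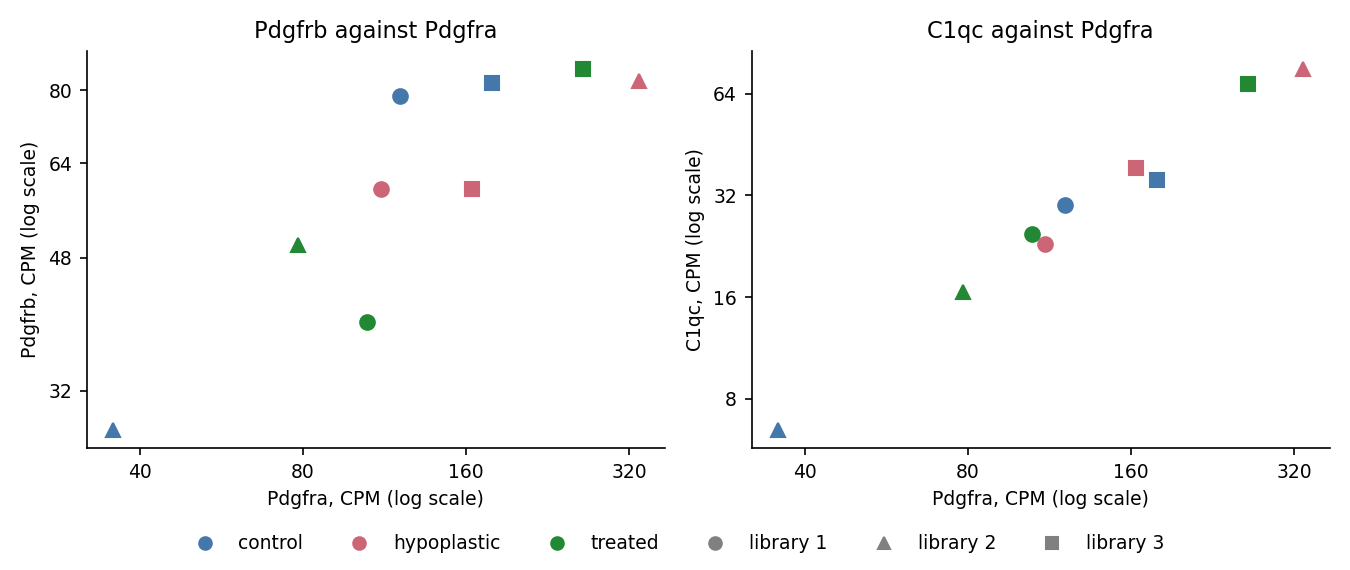
Pdgfrb against Pdgfra (left) and C1qc against Pdgfra (right), in CPM on log axes. Each point is 1 of 9 libraries, with colour for the group and shape for the library number. Both panels run from control library 2 at the lower left to hypoplastic library 2 and treated library 3 at the upper right, more tightly for C1qc (r = 0.993) than for Pdgfrb (r = 0.875).

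For Pdgfrb the most alike were Gucy1b1 (r = 0.988), the beta subunit of soluble guanylate cyclase and a known mural cell gene, Dpagt1 (0.979), an enzyme of N-glycan synthesis, and Casp8 (0.976), the initiator caspase. Gucy1b1 held 33.2, 13.4 and 33.9 CPM in the control, 26.4, 35.1 and 28.3 CPM in the hypoplastic and 16.2, 20.9 and 34.0 CPM in the treated libraries, with the same low library as Pdgfrb. For Pdgfb they were Zbtb38 (0.967), Inhbb (0.967), which encodes an inhibin and activin subunit, and Pxk (0.961). Pdgfa was most like Cox19 (0.916), Trmt61a (0.891) and Map3k10 (0.885). Pdgfc was most like Col11a2 (0.9), a cartilage collagen gene, and Spryd7 (0.892). Pdgfc and Col11a2 both peaked in hypoplastic library 1, where Col11a2 was at 72.8 CPM, against 3.23 to 15.7 CPM in the other libraries. Pdgfd was most like Atl1 (0.962), Tnfsf13 (0.953) and Gng12 (0.89).

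Some markers of the cells that carry or could accompany the receptors varied with them over the libraries and others did not, given here as a description. For 10 pericyte and mural genes the median r was 0.853 with Pdgfra and 0.862 with Pdgfrb, and 6 of 10 were over 0.8 with each. Notch3, which pericytes and smooth muscle cells need, had r = 0.95 with Pdgfrb, and Abcc9, a pericyte potassium channel subunit, 0.945 with Pdgfra. Lowest among these 10 genes were Rgs5 (0.322 with Pdgfra and 0.508 with Pdgfrb) and Cspg4 (0.335 and 0.646). For 12 fibroblast genes the medians were 0.653 and 0.537, and 5 of 12 were over 0.8 with Pdgfra, with Wnt5a at 0.959. At the other end of that list Fgf18 (-0.181), Gli1 (-0.102), Fgf10 (-0.0378) and Tcf21 (0.235), genes of the developing lung mesenchyme, showed little relation to Pdgfra. For 8 smooth muscle genes they were 0.374 and 0.536, with none over 0.8.

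For 7 leukocyte genes the median r was 0.89 with Pdgfra and 0.689 with Pdgfrb, and 4 of 7 were over 0.8 with Pdgfra. The highest with Pdgfra were Ptprc (0.972), the CD45 gene, and Cd68 (0.956). The lowest was S100a8, at 0.399 with Pdgfra and 0.105 with Pdgfrb. For 10 epithelial genes the medians were -0.663 and -0.455, and for 3 red cell genes -0.806 and -0.676. All these genes share the same libraries, whose first principal component correlated with Pdgfra at r = 0.907 and with Pdgfrb at 0.742, against 0.64 for Pdgfb, 0.373 for Pdgfc, 0.145 for Pdgfa and -0.401 for Pdgfd.

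The summed levels of the fibroblast, pericyte and leukocyte lists had control library 2 as the lowest and hypoplastic library 2 as the highest library. The fibroblast sum was 3707, 1870 and 5668 CPM in the control, 4314, 11840 and 4576 CPM in the hypoplastic and 4176, 3558 and 5057 CPM in the treated libraries. Most of the fibroblast sum in hypoplastic library 2 was Col1a1 (5816 CPM) and Col1a2 (3230 CPM). In control library 2 these genes stood at 598.8 and 505.6 CPM. The pericyte sum was 344.0 to 749.9, 632.5 to 997.7 and 444.7 to 713.0 CPM in the 3 groups, and the leukocyte sum 238.1 to 356.2, 300.7 to 473.9 and 342.1 to 425.9 CPM. Most of the leukocyte sum was 1 gene, Lyz2, at 216.4 CPM in control library 2 and 331.6 CPM in hypoplastic library 2. In the pericyte sum, Postn was at 29.7 CPM in control library 2 and 416.3 CPM in hypoplastic library 2. The smooth muscle sum was 456.7, 201.3 and 532.1 CPM in the control, 885.2, 569.6 and 482.4 CPM in the hypoplastic and 273.7, 733.9 and 579.7 CPM in the treated libraries, lowest in control library 2 but highest in hypoplastic library 1. The epithelial sum was 4129 to 5928 CPM in control, 3158 to 3697 CPM in hypoplastic and 3739 to 4210 CPM in treated lungs. The endothelial sum was 934.5 to 1139, 924.0 to 1096 and 838.2 to 1131 CPM, with neither of the 2 libraries at an end. No listed marker was at 0 in all libraries, and the part of cell makeup in the receptor levels was not tested.

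No gene of these or the other marker lists was called by edgeR. In hypoplastic against control lungs, the fibroblast list had 9 of 12 genes higher (median log2 difference 0.49), the pericyte list 9 of 10 (0.26), smooth muscle 8 of 8 (0.62) and leukocytes 7 of 7 (1.17). The epithelial list had 9 of 10 genes lower (median -0.35), and the endothelial list 8 of 10 (-0.10). Of the lower epithelial genes, 6 had an unadjusted p under 0.05 (5.69% of all tested genes on the lower side). Over all tested genes 51.9% were higher, with a median of 0.01. Sftpc was at 644.8, 950.8 and 873.1 CPM in control and 496.0, 291.8 and 437.7 CPM in hypoplastic libraries (edgeR adjusted p 0.317). In treated against hypoplastic lungs, 10 of 10 pericyte genes (median -0.15) and 6 of 7 leukocyte genes (-0.43) were lower, and 9 of 10 epithelial genes higher (0.16). Over all tested genes 48.1% were higher in this comparison, with a median of -0.01. None of these pericyte and leukocyte genes had an unadjusted p under 0.05. Of the higher epithelial genes 2 did (2% of all tested genes on the higher side). Both comparisons share the hypoplastic libraries, so their differences are not independent.

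Single markers with the smallest p of their list, all short of a call by edgeR, were as follows. In hypoplastic against control lungs the log2 difference was 5.96 for Lum, a fibroblast proteoglycan (6.28, 75.0 and 0.109 CPM in the hypoplastic libraries, 0.303 to 0.624 CPM in control), 1.33 for Trpc6, a mural cell channel, and 2.94 for S100a8, a neutrophil gene (19.8 to 39.0 CPM against 2.71 to 4.57 CPM). It was 1.84 for Tnni3 of cardiac muscle, 1.01 for Msln of mesothelium, 2.55 for Sox10 of Schwann cells, -0.28 for Robo4 of endothelium, -1.28 for Gp1bb of platelets and -0.80 for Alas2 of red cells. DESeq2 called Lum, S100a8, Tnni3 and Sftpc. In treated against hypoplastic lungs it was -4.63 for Lum, 0.65 for Sftpc, 1.39 for Gp1bb and -2.56 for Tnni3, which DESeq2 called. In treated against control lungs it was -0.69 for Sftpb, a surfactant protein gene, -0.36 for Robo4, -1.66 for Upk1b of mesothelium and 2.75 for S100a9, a neutrophil gene that DESeq2 called. Without hypoplastic library 3, edgeR called Lum in hypoplastic against control lungs and Tnni3 in that comparison and in treated against hypoplastic lungs, and without treated library 2 it called S100a8. Without hypoplastic library 2 the difference of Lum was 2.89 in hypoplastic against control and -1.57 in treated against hypoplastic lungs, and that of Msln was 0.36 in the former. Tnni3 stood at 1.08 without hypoplastic library 1 in hypoplastic against control lungs. Without control library 2, Alas2 stood at -0.42 in that comparison and Sftpb at -0.36 in treated against control lungs.

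The remaining lists were those of megakaryocyte, mesothelial, nerve and Schwann cell, red cell and cardiac muscle genes. Of 4 megakaryocyte genes 3 were lower in hypoplastic than in control lungs, of 3 mesothelial genes 2 were higher, of 4 nerve and Schwann cell genes 4 were higher and of 3 red cell genes 3 were lower. Cardiac muscle RNA differed among libraries, with a sum over 6 genes of 18.0, 12.3 and 4.15 CPM in the control, 241.1, 113.1 and 3.96 CPM in the hypoplastic and 6.64, 10.2 and 4.17 CPM in the treated libraries. Its genes had a median r of 0.0156 with Pdgfra and 0.0383 with Pdgfrb. The receptors stood at 111.2 CPM (Pdgfra) and 59.1 CPM (Pdgfrb) in hypoplastic library 1, which had the most of it, and at 333.1 and 82.2 CPM in hypoplastic library 2, which had the next most. Its part in the receptor levels was not tested.

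The PDGF pathway outside the 6 genes was followed through 4 lists. Beside a gene's fold change stands the share of all tested genes with an unadjusted p under 0.05 in that direction: 6.67% higher and 5.69% lower in hypoplastic against control lungs, 2% and 3.56% in treated against hypoplastic, and 1.67% and 2.5% in treated against control lungs. No gene of the 4 lists was called by edgeR in any comparison.

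Of 12 genes whose products activate or bind PDGFs, 5 were higher and 7 lower in hypoplastic against control lungs (median log2 difference -0.01), with 1 at an unadjusted p under 0.05 each way. Nrp1, a co-receptor for several growth factors, was at 242.0, 248.2 and 245.7 CPM in control and 201.4, 186.7 and 205.2 CPM in hypoplastic lungs. The groups did not overlap, at a log2 difference of -0.31 (SE 0.0868, edgeR adjusted p 0.317; DESeq2 adjusted p 0.0376, a call by that tool). The other was Plau, the urokinase gene, whose product can cut latent PDGF-D, at 0.57 (edgeR adjusted p 0.399). Furin, a protease that matures PDGF-A and PDGF-B, stood at -0.01 and Plat, whose product activates PDGF-C, at 0.62, both with overlapping libraries. In treated against hypoplastic lungs, 6 genes were higher and 6 lower, and A2m, a plasma carrier of growth factors, had the smallest p, at a log2 difference of -1.63 on 0.395 to 5.26 CPM (edgeR adjusted p 0.895). Leaving out hypoplastic library 2 gave -0.93, and leaving out treated library 1 gave -2.51.

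The 27 genes that carry the receptor signal differed little between the groups. Their log2 differences lay between -0.27 and 0.27 in hypoplastic against control lungs (16 higher, 11 lower, median 0.03), and between -0.23 and 0.26 in treated against hypoplastic lungs (13 higher, 14 lower, median -0.02). None reached an unadjusted p under 0.05 in the former. In the latter Plcg1, the phospholipase that docks on activated PDGF receptors, did. It was at 273.8, 272.3 and 289.4 CPM in hypoplastic and 312.2, 322.3 and 318.1 CPM in treated lungs without overlap, a log2 difference of 0.19 (SE 0.0842, edgeR adjusted p 0.898).

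Of 11 negative regulators, 8 were higher and 3 lower in hypoplastic than in control lungs (median 0.14). Socs3, a feedback inhibitor of cytokine signalling, held 9.08, 5.72 and 13.1 CPM in control, 17.2, 25.0 and 19.8 CPM in hypoplastic and 14.6, 12.5 and 14.0 CPM in treated lungs. The hypoplastic libraries lay above all others. The log2 difference was 1.15 (SE 0.266, edgeR adjusted p 0.317; DESeq2 adjusted p 0.00699) for hypoplastic against control and -0.59 (SE 0.262, edgeR adjusted p 0.895) for treated against hypoplastic lungs. Feedback inhibitors of the RAS-MAPK route did not stand out: Dusp6 was at -0.02, Spry2 at 0.14 and Spry4 at 0.34 in hypoplastic against control lungs, each with an edgeR adjusted p of 0.712 or more.

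The immediate early and serum response genes, which PDGF and many other stimuli induce in cultured fibroblasts, showed the largest shift of the 4 lists. In hypoplastic against control lungs 11 of 12 were higher, with a median log2 difference of 0.96, 10 had an unadjusted p under 0.05 (6.67% of all tested genes on the higher side), and 9 did not overlap (7.68%). edgeR called none of them (smallest adjusted p 0.317), limma voom none and DESeq2 4 (over all tested genes DESeq2 called 207 of 12966). The count of 10 was 5 without hypoplastic library 2, 8 without control library 2, and 5 with both left out, when the median was 0.47. Ccn1, a secreted matricellular protein gene, was at 148.9, 111.6 and 214.9 CPM in control and 318.5, 319.8 and 384.8 CPM in hypoplastic lungs, a log2 difference of 1.11 (SE 0.259, edgeR adjusted p 0.317; DESeq2 adjusted p 0.00585).

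Fos, a component of AP-1, was at 49.8, 59.3 and 46.1 CPM in control, 101.8, 89.7 and 109.9 CPM in hypoplastic and 75.4, 120.6 and 56.1 CPM in treated lungs. Egr1, a transcription factor gene, was at 17.6, 21.3 and 17.2 CPM in control, 58.4, 54.6 and 32.1 CPM in hypoplastic and 33.8, 75.6 and 33.1 CPM in treated lungs. Both were without overlap in hypoplastic against control lungs, and treated library 2 was the highest of all libraries for each. Srf, the serum response factor itself, stood at -0.09 in hypoplastic against control lungs, and Myc at 0.11. The summed level of the list was 920.8 to 1157 CPM in control, 1560 to 1793 CPM in hypoplastic and 1194 to 1851 CPM in treated lungs.

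In treated against control lungs, 12 of 12 were higher (median 0.55), 5 with an unadjusted p under 0.05, and DESeq2 called 2 (14 of 12966 over all tested genes). Without treated library 2 these values were 10 of 12, a median of 0.29 and 3 genes, and the number was also 3 without control library 3. Egr1 had the smallest p, at a log2 difference of 1.34 (SE 0.336, edgeR adjusted p 0.998; DESeq2 adjusted p 0.0376), and stood at 0.84 without treated library 2. In treated against hypoplastic lungs, 10 of 12 were lower (median -0.21) and none of those 10 had an unadjusted p under 0.05, while Srf was higher at 0.30 (edgeR adjusted p 0.895). Without treated library 2, 5 of the lower genes had one and the median was -0.44. These 2 comparisons share libraries with the one before. Over the 9 libraries the list had a median r of 0.298 with Pdgfra, 0.166 with Pdgfrb, 0.222 with Pdgfb and 0.123 with Pdgfa, as a description.

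**Figure D5:**
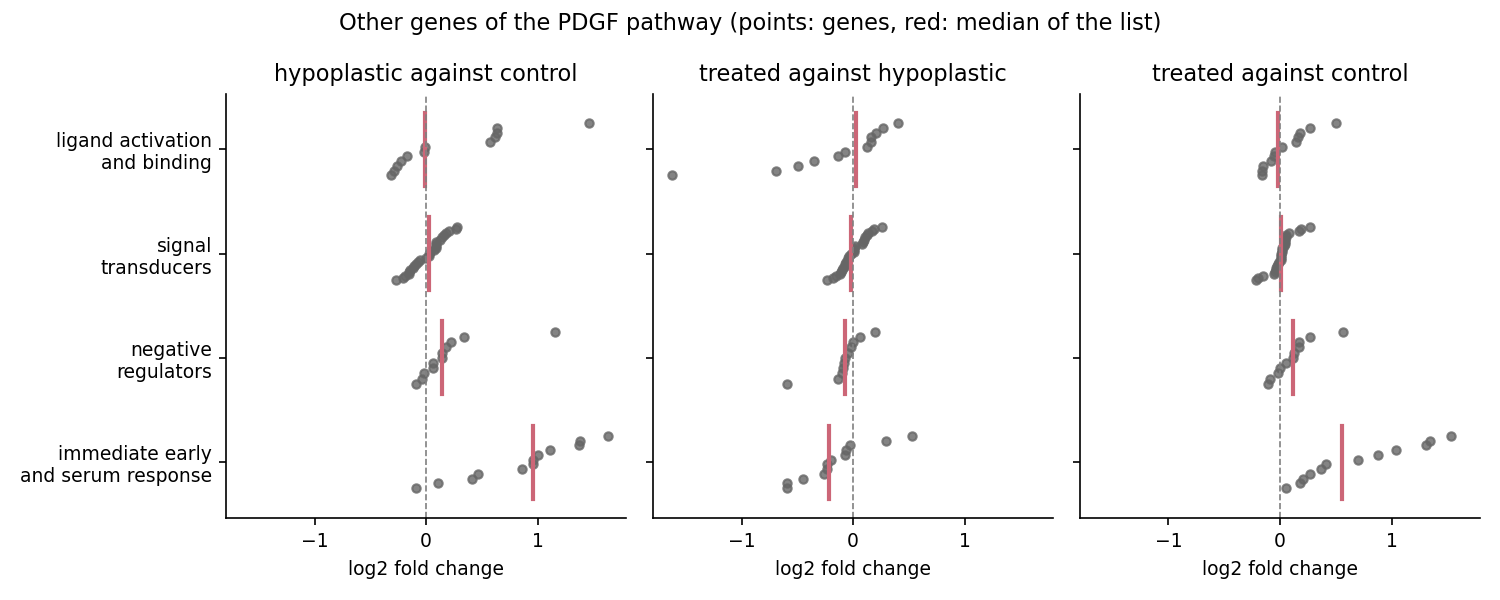
Log2 fold changes of the genes in the 4 PDGF pathway lists, 1 panel per comparison. Grey points are genes, spread vertically in order of their value, red lines are list medians and the dashed line marks no change. The medians of the upper 3 lists lie between -0.07 and 0.14 in all panels, and that of the immediate early list at 0.96, -0.21 and 0.55.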

How the data were processed

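The authors deposited 1 table of estimated counts per gene, and 19.5% of its nonzero values were exactly whole, with no tolerance. The values were taken as not normalized between libraries. The column totals were unequal, which alone cannot show this, since scaled counts can also have unequal totals. Genome build rn7 and DESeq2 are named in the submitters' processing notes, without a role; the aligner, counter and annotation were not given in the sources used here. NCBI Gene IDs were matched to symbols with a RefSeq table of assembly GRCr8 (17314 of 17465 IDs, 99.1%), which also supplied the promoters. How reads shared by near-identical genes were counted is not known.

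Counts were rounded and tested with edgeR 4.0.16 (R 4.3.3): TMM, filterByExpr with the group (12966 genes kept), glmQLFit with legacy=FALSE and all 9 libraries in 1 fit (6 residual degrees of freedom), glmQLFTest, and Benjamini-Hochberg adjustment over all tested genes within a comparison. A call is an adjusted p under 0.05. Standard errors came from the ratio of the change to the root of F, so the 95% intervals are approximate. Profiles used log2 CPM with a prior count of 2. Ratios and correlations were tested by exact permutation. Scripts were checked on simulated counts. DESeq2 1.42.0, limma 3.58.1 (voom), other scalings and filters, a replicate block and leaving out libraries were alternatives.

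Named genes were the 6 members, for each list and comparison the gene of smallest p where unadjusted p was under 0.05, and the 3 genes most like each member; other genes were named after their values were seen, and 2 genes that the rule would name are not reported here. The members and gene lists were chosen with earlier results of these data known. Symbols not matched in the table (Klk3, Cbl and 7 markers) were not analysed here.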

Additional observations from a re-analysis of the deposited data

How the results depend on the processing

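Each comparison was refitted under 19 alternatives, which makes 342 fits of the 6 genes. None gave a call (smallest adjusted p 0.409), and the unadjusted p was under 0.05 in 1. For hypoplastic against control lungs the number of genes called was 207 by DESeq2, 2 with a replicate block, 4 with the 6 libraries compared alone, 2 with control library 2 and hypoplastic library 2 left out, and 0 to 45 with 1 library left out. In treated against hypoplastic lungs it was 17 by DESeq2 and 0 to 44 with 1 library left out, and in treated against control lungs 14 by DESeq2, 1 without both libraries and 0 to 1. The replicate numbers are not said to pair lungs. Same-numbered libraries gave r of -0.282 to 0.227 for their deviations from group means, over 0.1 in 3 of 9 pairs. Other pairs across groups gave -0.439 to 0.389, over 0.1 in 7 of 18. For 0 libraries were both same-numbered libraries the closest 2. These values cannot decide whether lungs were paired, since the deviations in a group of 3 sum to 0 and the pairs are few. The replicate block changed no call among the 6 genes.

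Signs turned where libraries were left out. Without control library 2 and hypoplastic library 2, the log2 differences of hypoplastic from control lungs were -0.0911 for Pdgfa, -0.22 for Pdgfb, -0.12 for Pdgfra and -0.44 for Pdgfrb. Under that setting Pdgfra stood at 0.11 when treated and hypoplastic lungs were compared and -0.00852 in treated against control lungs, and Pdgfc at -0.0943 in the latter. With 1 library left out, hypoplastic against control lungs gave -0.0350 to 0.13 for Pdgfa, -0.14 to 0.24 for Pdgfb and -0.26 to 0.32 for Pdgfrb. Treated against hypoplastic lungs gave -0.0280 to 0.19 for Pdgfa, -0.0604 to 0.32 for Pdgfb, -0.17 to 0.16 for Pdgfd, -1.14 to 0.12 for Pdgfra and -0.58 to 0.0167 for Pdgfrb. Treated against control lungs gave -0.00543 to 0.21 for Pdgfa, -0.0940 to 0.17 for Pdgfc, -0.28 to 0.93 for Pdgfra and -0.49 to 0.12 for Pdgfrb. The log2 ratio of Pdgfra to Pdgfrb in treated against hypoplastic lungs ran from -0.51 to 0.0533, and that of Pdgfa to Pdgfra in treated against control lungs from -0.82 to 0.23. Correlations ran from -0.0362 to 0.45 for Pdgfa with Pdgfra, -0.215 to 0.603 for Pdgfc with Pdgfra, -0.372 to 0.409 for Pdgfd with Pdgfrb and 0.737 to 0.923 for Pdgfra with Pdgfrb, the last with an adjusted exact permutation p of 0.189 without control library 2. Beyond the libraries used, the cause was not tested. The lowest Pdgfd count was 65, where counting error is 12.4%; the other 5 genes had 281 counts or more in every library. The interval for Pdgfra in hypoplastic against control lungs runs from 0.685-fold to 4.80-fold.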

Other observations

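Among the relatives of the PDGF family, the VEGF branch and its receptors gave 0 of 8 genes called by edgeR in each comparison. In hypoplastic against control lungs 5 were higher and 3 lower, with a median log2 difference of 0.14. Pgf, the placental growth factor gene, stood at 3.51, 0.713 and 3.72 CPM in the control, 3.51, 16.5 and 6.35 CPM in the hypoplastic and 4.52, 2.51 and 7.21 CPM in the treated libraries. Its log2 difference was 1.71 (SE 0.676, edgeR adjusted p 0.369) with overlapping libraries, 0.87 without hypoplastic library 2, and its r with Pdgfra over the 9 libraries was 0.948. Vegfa, the main endothelial growth factor of the lung, held 402.3 to 477.7 CPM in control, 441.7 to 535.2 CPM in hypoplastic and 357.8 to 501.6 CPM in treated lungs, and Kdr, its main signalling receptor, differed by -0.07 in hypoplastic against control lungs.

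The PDGF receptors belong to the class III receptor tyrosine kinases, and 0 of 7 other genes of that class and its ligands were called by edgeR. Csf1r, the receptor of macrophage colony-stimulating factor, was at 33.3, 8.37 and 37.0 CPM in the control, 22.8, 76.1 and 39.6 CPM in the hypoplastic and 30.3, 23.8 and 67.8 CPM in the treated libraries, with r = 0.978 with Pdgfra. Kit, the stem cell factor receptor, stayed between 51.4 and 77.2 CPM in all 9 libraries. Lrp1, an endocytic receptor that binds the beta receptor, was at 408.8, 221.0 and 526.8 CPM in the control, 365.2, 891.4 and 538.1 CPM in the hypoplastic and 321.0, 324.4 and 469.2 CPM in the treated libraries (r = 0.926 with Pdgfra and 0.809 with Pdgfrb). These coefficients are descriptions over libraries that share control library 2 as their low end.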
